A study of Mus musculus with 23 samples.

Results

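The comparison described here sets cultured T helper 2 (Th2) cells against Th2 cells taken from the allergic mouse lung, by sequencing of their microRNAs. It was drawn from the library titles and holds 7 of the 23 libraries of the series, 4 of cultured Th2 and 3 of lung Th2. Cultured Th2 were CD4+ T cells of wild-type mice, bead-selected from spleen and lymph nodes and grown for 5 days with antibodies to CD3, CD28 and interferon gamma (the last at 10 µg/ml) in the presence of IL-4 at 500 U/ml. Lung Th2 came from mice carrying the Il4tm1LKy reporter allele (4get). These mice were sensitized in the peritoneum with 50 µg of ovalbumin in alum over 3 weeks and then inhaled 50 µg of ovalbumin over 3 days. The cells were sorted from the lung as CD45+ CD11c- CD11b- CD4+ CD3+ and reporter-positive. Both groups are therefore CD4+ T cells, but they differ in genotype, in tissue of origin, in how they were selected and in where they were stimulated, and these cannot be told apart. The labels give no ages and do not say which libraries came from separate animals or cultures, so the p-values measure the spread between these libraries, which may be technical. The 4 cultured libraries and the 3 lung libraries carry numbers that place 1 of each in each of the first 3 count tables, and the fourth cultured library stands alone in its table.

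MicroRNAs are short RNAs that pair with messenger RNAs, mainly through the seed at their 5′ end, and lower their stability or translation. Naive T cells hold much miR-150, a microRNA of mature resting lymphocytes that targets Myb, and lose it on stimulation. Stimulated T cells gain miR-21, miR-155 and miR-146a, and miR-146a limits NF-kappaB signalling by targeting Traf6 and Irak1. The miR-17-92 cluster accompanies T cell proliferation, and miR-210 is the microRNA best known for its induction by HIF-1 when oxygen is low.

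The mature sequences below are those of microRNAs that carry the results, with the seed (bases 2 to 8) in capitals, from RefSeq on GRCm38. The first 3 were called different between the groups and have no seed in common, and the fourth, miR-146b-5p, shares the seed of miR-146a-5p but not its difference.
miR-146a-5p: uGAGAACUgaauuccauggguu
miR-210-3p: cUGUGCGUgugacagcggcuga
miR-150-3p: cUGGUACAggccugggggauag
miR-146b-5p: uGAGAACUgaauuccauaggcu
miR-181a-5p: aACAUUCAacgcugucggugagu
miR-181b-5p: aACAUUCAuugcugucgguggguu
miR-183-5p: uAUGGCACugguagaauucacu
miR-182-5p: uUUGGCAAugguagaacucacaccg
miR-106b-5p: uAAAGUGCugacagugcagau
miR-17-5p: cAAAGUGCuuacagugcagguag
The mature miR-146a-5p lies at chr11:43374435-43374456 on the minus strand, miR-210-3p at chr7:141221407-141221428 on the minus strand and miR-150-3p at chr7:45121798-45121819 on the plus strand, none of them inside a GENCODE gene of the same strand other than the microRNA's own. The miR-181a-5p and miR-181b-5p sequences share the seed ACAUUCA, and miR-17-5p and miR-106b-5p share AAAGUGC. The miR-183-5p and miR-182-5p sequences differ in their seeds but come from 1 cluster on chromosome 6.

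Depth differed strongly between the groups. Total counts were 28371898, 2155727, 1005995 and 3983017 in the cultured libraries, against 152597, 272154 and 84911 in the lung libraries. A count of 0 therefore allows up to 2.98 CPM (counts per 1000000 counts of the library) in the shallowest cultured library, and up to 35.3 CPM in the shallowest lung library, at a limit of 3 counts. No microRNA defines Th2 cells, so the label could not be checked in that way. The blood cell microRNA miR-142a-5p was present in every library, at 1297 to 24272 CPM in cultured Th2 and at 12955 to 53260 CPM in lung Th2. Lung library 2 stood apart by its content of microRNAs of other tissues, which is described below, and the calls, and the lists it touches most, are also given without it.

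Cultured and lung Th2 differed most firmly in 3 microRNAs. Cultured Th2 had less miR-150-5p and miR-146a-5p and more miR-210-3p than lung Th2. In all, 7 of 384 tested microRNAs passed an adjusted p of 0.05, which is 1.82% of those tested (edgeR's quasi-likelihood test with Benjamini-Hochberg adjustment, with the count table as a block). Of these 7, miR-210-3p and miR-532-5p were higher in cultured Th2 (0.521% of those tested), and miR-146a-5p, miR-184-3p, miR-1a-3p and both arms of miR-150 were lower (1.3%). An unadjusted p below 0.05 was reached by 104 microRNAs. Without the block the count of calls fell to 2, miR-150-5p and miR-1a-3p. Leaving out lung library 1 gave 17 calls, leaving out lung library 2 gave 10, and leaving out cultured library 1 or 2 gave 20 each. All log2 differences below are cultured minus lung on the scale of the fit, with their standard errors. Their median over the 384 was 0.96 with the TMM scaling used, 0.55 with DESeq2 size factors and 0.07 with library totals, so a difference near 1 is a typical one here.

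**Figure D1:**
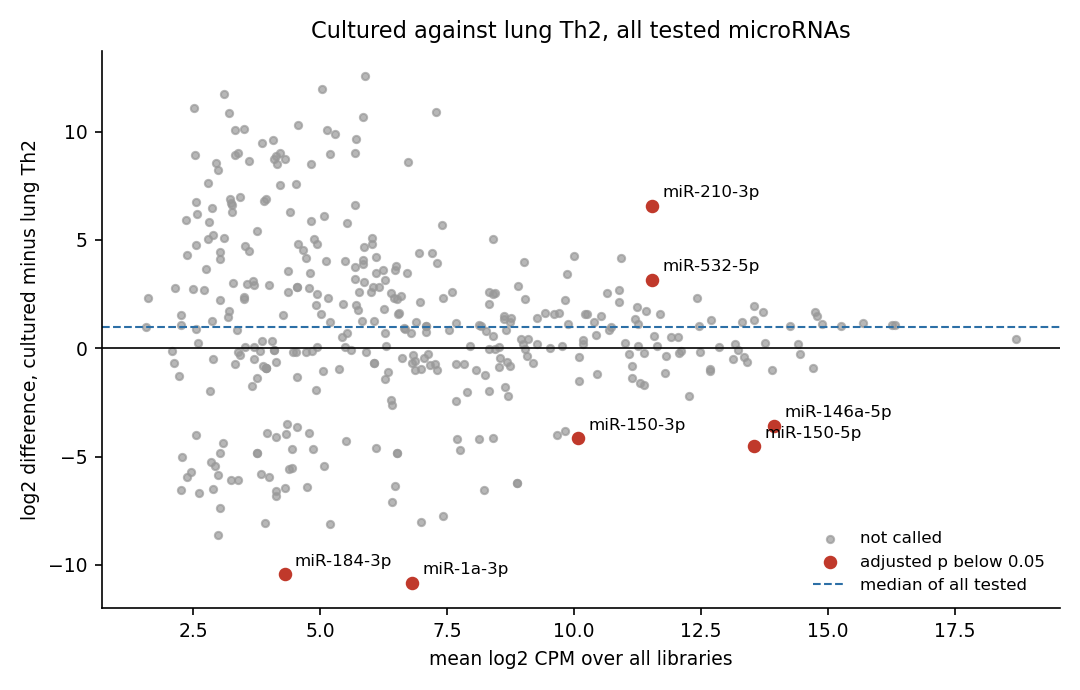
Log2 difference of cultured minus lung Th2 against the mean log2 CPM over all libraries of the series, with 1 point for each of the 384 tested microRNAs; red points are the 7 with an adjusted p below 0.05, and the dashed line is the median of 0.96. The called microRNAs with a mean log2 CPM above 10 are miR-146a-5p and both miR-150 arms below 0, and miR-210-3p and miR-532-5p above it.

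Among the calls, miR-150-5p had the smallest p. It stood at 114, 996, 610 and 68.8 CPM in cultured libraries 1 to 4, against 1606, 42436 and 44258 CPM in lung libraries 1 to 3. Every cultured library lay below every lung library, although lung library 1 was well below the other two. The log2 difference was -4.53 ± 0.62 (adjusted p = 2.3e-06, edgeR's quasi-likelihood test), lower in 3 of 3 count tables, and it was called in 18 of 18 alternative settings. Its partner from the other arm of the hairpin, miR-150-3p, had 14, 96.5, 76.5 and 72.8 CPM in cultured Th2, against 1311, 838 and 601 CPM in lung Th2. Here too the groups did not overlap, at -4.14 ± 1.07 (adjusted p = 0.024, edgeR). That call was the less stable one: it held in 10 of 18 alternatives. It was lost without lung library 1, where the value was -2.30 (adjusted p = 0.19, edgeR), and without cultured library 1, 2 or 4. Without lung library 2 the value was -4.79 (adjusted p = 0.011, edgeR). Naive CD4 T cells, an untreated population of the series, held 5878, 113986, 76918 and 20342 CPM of miR-150-5p, and these levels were not tested against the Th2 groups.

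miR-146a-5p followed the same direction with little spread in the lung. Its level was 974, 1316, 797 and 46.2 CPM in cultured Th2, against 16016, 19970 and 12719 CPM in lung Th2. The groups were far apart, and cultured library 4 was the lowest. The log2 difference was -3.57 ± 0.57 (adjusted p = 3.46e-05, edgeR). With no replicate block the value was similar at -3.72, but the adjusted p was 0.075 (edgeR). It lost its call in 2 of 18 alternatives, both without the block. miR-146b-5p, which has the same seed, stood at 594, 327, 138 and 46.7 CPM in cultured Th2 and at 367, 1073 and 188 CPM in lung Th2, and these ranges overlapped (log2 difference -0.14 ± 0.67, adjusted p = 0.93, edgeR). It was chosen for its seed after its values were seen.

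miR-210-3p moved the other way. It had 18749.5, 15028, 5640 and 333 CPM in cultured Th2, against 374, 334 and 11.8 CPM in lung Th2. The lung values rest on 57, 91 and 1 counts. In CPM, cultured library 4 lay within the lung range, and after TMM scaling, which gave that library a factor of 0.203, the groups did not overlap. The log2 difference was 6.58 ± 1.08 (adjusted p = 3.81e-05, edgeR), higher in 3 of 3 tables. It too lost its call in the 2 alternatives without a block (adjusted p = 0.075 in the fit of all libraries, edgeR). Both arms of miR-210 together made up 1.88, 1.52, 0.564 and 0.0345% of all counts in cultured Th2, against 0.0374, 0.0334 and 0.00118% in lung Th2.

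miR-532-5p, of a cluster on the X chromosome, was the other microRNA called higher. It measured 379, 1818, 1846 and 1982 CPM in cultured Th2, against 59, 496 and 23.6 CPM in lung Th2. Within each table the cultured library was the higher one, while in CPM cultured library 1 lay below lung library 2. The log2 difference was 3.17 ± 0.84 (adjusted p = 0.028, edgeR), called in 12 of 18 alternatives, and it was 2.40 without lung library 3 (adjusted p = 0.14, edgeR). Without lung library 2 the difference was 4.05 (adjusted p = 0.028, edgeR). The 7 other tested products of its cluster (chrX:7237683-7248497, minus strand) were all above 0, with a median of 2.42, and none was called.

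The remaining calls rest on few lung libraries. miR-184-3p had 0 counts in all 4 cultured libraries and 10, 88 and 0 counts in the lung libraries. It was called lower in cultured Th2 (adjusted p = 0.0089, edgeR), and no fold is given because the lung counts come from 2 libraries of unequal depth. Without lung library 2 the call held (adjusted p = 0.020, edgeR), but it then rested on the 10 counts of lung library 1. With no replicate block miR-184-3p was not called (adjusted p = 0.076, edgeR). miR-1a-3p, a muscle microRNA, had 0 counts in all 4 cultured libraries and 0, 1173 and 0 counts in the lung libraries (adjusted p = 0.010, edgeR). It came from lung library 2 alone, and without that library it was not called (adjusted p = 1.0, edgeR).

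**Figure D2:**
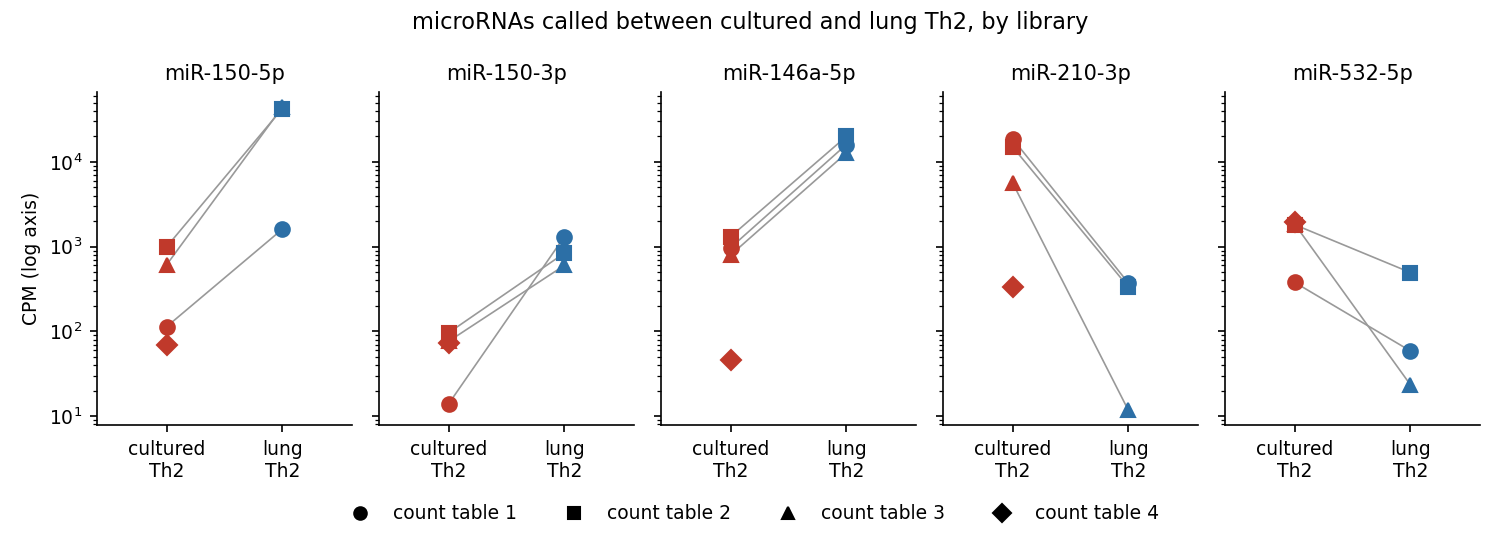
CPM on a log axis in each library for the 5 called microRNAs that moved the same way in all 3 count tables, with cultured Th2 in red on the left and lung Th2 in blue on the right; the marker gives the count table and grey lines join the libraries of a table. miR-146a-5p and both miR-150 arms were higher in each lung library than in any cultured library, and miR-210-3p and miR-532-5p were lower in the lung library of each joined pair.

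Several microRNAs lay just outside the threshold and were not called. Among those moving 1 way in all 3 tables, miR-203-3p had 9.59, 10.2, 12.9 and 3.77 CPM in cultured Th2 and 105, 735 and 212 CPM in lung Th2. Its groups did not overlap (-4.14 ± 1.19, adjusted p = 0.054, edgeR). miR-181a-5p, which sets the T cell receptor's sensitivity in mouse thymocytes, had 1071, 584, 670 and 65 CPM in cultured Th2 and 2910, 14881 and 4781 CPM in lung Th2. The difference of miR-181a-5p was -2.19 ± 0.66 (adjusted p = 0.054, edgeR), but -0.65 without cultured library 2. miR-181b-5p, with the same seed, had 38.3, 160, 65.6 and 56.2 CPM in cultured Th2 and 111, 2421 and 471 CPM in lung Th2. All 3 tested products of the Mir181a-1 and Mir181b-1 cluster on chromosome 1 were lower in 3 of 3 tables, as were 5.99% of all tested microRNAs. The miR-181a-5p and miR-181b-5p sequences are also encoded on chromosome 2, so only miR-181a-1-3p is particular to that cluster. On the other side, miR-183-5p had 1081, 2716, 1736 and 6637 CPM in cultured Th2 and 721, 235 and 47.1 CPM in lung Th2. The cultured libraries lay above all lung libraries (4.17 ± 1.20, adjusted p = 0.054, edgeR). Its cluster partner miR-182-5p, an IL-2-induced microRNA of helper T cells that targets Foxo1, had 663, 3647, 1564 and 7954 CPM in cultured Th2 and 433, 863 and 836 CPM in lung Th2. That gave 1.88 ± 0.94 (adjusted p = 0.18, edgeR), named here for its cluster after its values were seen. All 4 tested products of this cluster were above 0 and 3 of them were higher in 3 of 3 tables, as were 22.7% of all tested microRNAs.

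Over the whole table, 42 of 384 microRNAs did not overlap between the groups after scaling (10.9%), with 34 higher (8.85%) and 8 lower (2.08%) in cultured Th2. The lists that follow group the microRNAs by known role. None gets a test of its own, and each is described by its counts and its median beside the median of 0.96 over all tested.

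The microRNAs of resting lymphocytes as a list lay below the rest. Of the 11 tested members 2 were called lower, miR-150-5p and miR-150-3p, none was called higher, and 4 lay above 0. Both calls are arms of 1 hairpin, so they are not separate instances, and of all tested microRNAs 1.3% were called lower. The median log2 difference was -0.97, and it stayed below 0 with DESeq2 size factors (-1.37) and library totals (-1.85). Together these microRNAs held 0.802, 1.5, 0.806 and 0.453% of counts in cultured Th2, against 3.38, 7.03 and 5.33% in lung Th2. No cultured library reached the lowest lung library, and naive CD4 T cells averaged 11.4%. In lung libraries 2 and 3 most of the summed share was miR-150-5p, at 4.24 and 4.43% of counts, against 0.161% in lung library 1. The sum therefore repeats that call in part, and the share of the list without miR-150 was not tested. miR-139-5p had 15.6, 48.7, 0 and 0 CPM in cultured Th2 and 413, 981 and 188 CPM in lung Th2 (adjusted p = 0.079, edgeR).

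Of the 18 tested activation-induced microRNAs, 1 was called lower, miR-146a-5p, none was called higher, and 11 lay above 0, with a median of 0.70 (-0.08 with library totals). A count of 1 in 18 is too small to set against the 1.82% called among all tested. miR-21a-5p, the most abundant microRNA of both groups, held 29.4, 36.4, 51.9 and 82.2% of counts in cultured Th2, against 49.0, 31.3 and 52.8% in lung Th2. The means were 50.0 ± 23.4% (SD, n = 4) in cultured Th2 and 44.4 ± 11.5% (SD, n = 3) in lung Th2, and their difference of 5.61 percentage points was smaller than the spread of either group (exact two-sided permutation test, p = 0.80, where the smallest possible is 0.057). Within the 3 pairs the mean difference was -5.13 points, and without lung library 2 the difference was -0.91 points, so its direction depends on cultured library 4 and lung library 2. Counting error of a single library's share was at most 0.336 points (95% Wilson interval). miR-155-5p, needed for Th2 responses in mice, had 3320, 6000, 1694 and 307 CPM in cultured Th2 and 6127, 8297 and 3886 CPM in lung Th2. The ranges overlapped, and the difference was 0.13 ± 1.28 (adjusted p = 0.99, edgeR), with a sign that turned under most alternatives.

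**Figure D3:**
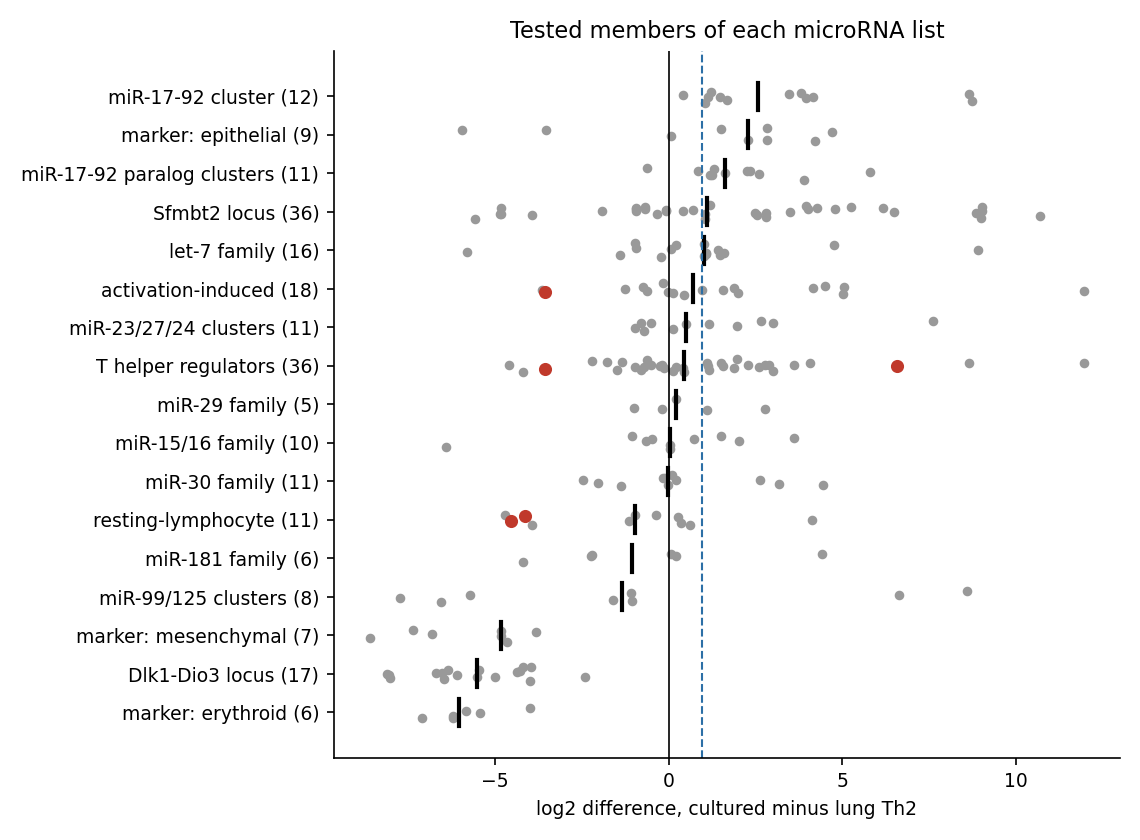
Log2 difference of cultured minus lung Th2 for each list that has 5 or more tested members, with 1 point per microRNA and their number in brackets; black bars are list medians, the dashed line is the median of all tested (0.96) and red points are calls. The miR-17-92 cluster has the highest median (2.58) and the erythroid markers the lowest (-6.02), and the resting-lymphocyte list holds 2 red points, both below 0.

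The miR-17-92 cluster and its paralogs, microRNAs of proliferating cells, lay above 0 nearly throughout, without a single call. All 12 tested members of the miR-17-92 cluster were above 0, and their median was 2.58, or 1.82 under library totals. Most of all tested microRNAs lay above 0 too, with a median of 0.96. Of the 12, 5 were higher in 3 of 3 tables, as were 22.7% of all tested. Without lung library 2, 11 of the 12 were above 0, as were 299 of all 432 then tested. Their median was then 2.12, beside 1.75 over all tested. Of the 11 tested paralogs 10 were above 0, with a median of 1.61 (0.80 with library totals). Of these 11, 8 were higher in 3 of 3 tables, beside the 22.7% of all tested. Without lung library 2 the paralogs had a median of 1.52, which is below the 1.75 of all tested. miR-92a-3p had 4011, 51935, 30647 and 8100 CPM in cultured Th2 and 1330, 13573 and 22424 CPM in lung Th2. Each table had the cultured library on top, and the groups overlapped across tables (1.69 ± 0.54, adjusted p = 0.070, edgeR). miR-106b-5p, of a cluster within Mcm7, had 14308, 13601, 8694 and 510 CPM in cultured Th2 and 1284, 5581 and 5123 CPM in lung Th2 (2.34 ± 0.70, adjusted p = 0.054, edgeR). miR-17-5p had 28609, 10874, 4647 and 351 CPM in cultured Th2 and 12425, 5578 and 6254 CPM in lung Th2, with wide overlap (adjusted p = 0.27, edgeR). The 6 tested microRNAs that share the seed AAAGUGC had differences of 1.04 to 2.34, and 5 of them were higher in 3 of 3 tables. All 6 belong to the cluster or its paralogs and are already counted above, so they are not further instances. In share of counts the cluster held 3.97, 7.77, 5.13 and 0.94% in cultured Th2, against 2.22, 2.83 and 3.16% in lung Th2. Cultured library 4, dominated by miR-21a-5p, was the lowest of all. Of the counts other than miR-21a-5p the cluster held 5.62, 12.2, 10.7 and 5.29% in cultured Th2, against 4.35, 4.12 and 6.71% in lung Th2.

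The let-7 family, abundant microRNAs of differentiated cells, had no call among 16 tested and a median of 1.02 (0.07 under library totals). Its share was 12.9, 19.1, 19.5 and 8.58% in cultured Th2, against 14.5, 19.1 and 13.8% in lung Th2. Of the counts other than miR-21a-5p it was 18.2, 30.1, 40.4 and 48.3% in cultured Th2, against 28.4, 27.8 and 29.3% in lung Th2. Members did not move alike. let-7c-5p had 1584, 5920, 6131 and 1713 CPM in cultured Th2 and 31639, 19592 and 8668 CPM in lung Th2 (-0.93 ± 0.54, adjusted p = 0.24, edgeR). let-7b-5p had 2200, 3849, 3414 and 1043 CPM in cultured Th2 and 21875, 9998 and 8385 CPM in lung Th2 (-0.98 ± 0.62, adjusted p = 0.27, edgeR). These 2 were lower in 3 of 3 tables, and with library totals as the scaling both were called lower. let-7g-5p had 6335, 26201, 28507 and 6547 CPM in cultured Th2 and 1383, 22212 and 20280.1 CPM in lung Th2, and was higher in 3 of 3 tables (1.48 ± 0.56, adjusted p = 0.11, edgeR).

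Among the 11 tested microRNAs of the miR-23, miR-27 and miR-24 clusters, which restrain Th2 cytokines in mouse T cells, 7 lay above 0 and none was called (median 0.51, or -0.38 with library totals). miR-27b-3p had 9471, 39004, 42378 and 6340 CPM in cultured Th2 and 5131, 13180 and 12990.1 CPM in lung Th2 (1.97 ± 0.65, adjusted p = 0.070, edgeR). miR-24-3p shows how far the tables differed, at 155636, 20836, 8182 and 358 CPM in cultured Th2 and 89556, 17472 and 5359 CPM in lung Th2. Its groups overlapped widely, while the cultured library was the higher one in each table (1.15 ± 0.45, adjusted p = 0.12, edgeR). The wider list of microRNAs with a known role in helper or regulatory T cells had 36 tested members, of which 1 was called higher (miR-210-3p), 1 lower (miR-146a-5p) and 21 lay above 0, with a median of 0.43 (-0.45 with library totals). Among all tested, 0.521% were called higher and 1.3% lower, so that 1 call each way in 36 is no result about the list.

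The other families gave no call. Their medians were 0.04 for the 10 tested of the miR-15/16 family, 0.22 for the 5 of the miR-29 family, -0.01 for the 11 of the miR-30 family, -1.06 for the 6 of the miR-181 family and -1.34 for the 8 of the miR-99 and miR-125 clusters. Without lung library 2 the median over all tested was 1.75, that of the miR-30 family was 0.33 and that of the miR-99 and miR-125 clusters was 5.42, so the signs of these 2 medians rest on that library. The 2 tested members of the miR-103 and miR-107 family had a median of 1.63, and the 2 of miR-142 a median of -0.03. With library totals the medians of the miR-15/16 and miR-29 families were both -0.75. The 36 tested microRNAs of the Sfmbt2 locus, a large intronic cluster of rodents, had a median of 1.11 (0.25 with library totals), with 22 above 0. Of these 36, 9 were higher in 3 of 3 tables, as were 22.7% of all tested.

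Mesenchymal, erythroid and endothelial markers held a larger share in the lung library than in the cultured library of each count table, and the other marker lists did so less evenly. Mesenchymal markers (miR-143, miR-145 and the miR-199 and miR-214 group) summed to 0.000525, 0.000232, 0.0224 and 0.000753% of counts in cultured Th2, against 0.00786, 0.714 and 0.0495% in lung Th2. Erythroid markers summed to 0.00024, 0.00246, 0.192 and 0.0057% in cultured Th2, against 0.0144, 0.753 and 0.969% in lung Th2. Lung library 2 was high in both, and lung library 3 in the erythroid list. Liver or muscle markers held 0.00155, 0.000325, 0.289 and 0.00879% in cultured Th2, against 0.0347, 0.605 and 0.053% in lung Th2, and in the third table the cultured library was the higher one. The myeloid marker miR-223 was at most 0.00538% in cultured Th2 and reached 0.113% in lung library 2. Endothelial markers ran from 0.000452 to 0.0338% in cultured Th2 and from 0.00983 to 0.108% in lung Th2, and these groups overlapped. Epithelial markers held 0.0606, 0.0589, 0.0258 and 0.00869% in cultured Th2, against 0.0433, 0.102 and 0.0318% in lung Th2, with the cultured library higher in the first table. All 7 tested mesenchymal, all 6 tested erythroid, both tested endothelial and the 1 tested myeloid marker lay below 0, and none was called. The 9 tested epithelial markers went the other way, with 7 above 0, a median of 2.29 (1.58 with library totals) and no call. Of the 2 tested liver or muscle markers 1 lay above 0, and the other is miR-1a-3p. These counts lean on lung library 2. Without it, 4 of 7 tested erythroid markers and 1 of 2 endothelial markers lay above 0, as did 299 of all 432 then tested. Of 7 mesenchymal markers 5 lay below 0, as did 133 of the 432. Of these 5, miR-214-3p was called lower (adjusted p = 0.035, edgeR), and 5 of all 432 were called lower. Among the markers, miR-486a-5p and miR-486b-5p had equal counts in every library, as had miR-199a-3p and miR-199b-3p, so each pair counts as 1 measurement. Among the erythroid markers, miR-451a had 1.13, 15.8, 1848 and 34.6 CPM in cultured Th2 and 144, 3211 and 4063 CPM in lung Th2 (adjusted p = 0.087, edgeR). The part of other cells in miR-150-5p, miR-146a-5p and miR-210-3p was not tested. Without lung library 2 the values of these 3 were -4.77, -3.61 and 7.47, each called. Lung library 3, which stayed in, held 0.969% of erythroid and 0.104% of endothelial markers.

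The imprinted Dlk1-Dio3 locus on chromosome 12, whose microRNAs belong to stem cells, brain and mesenchyme, was seen in 1 lung library. It held 0.000821, 0.00148, 0 and 0.000427% of counts in cultured Th2, against 0, 0.528 and 0% in lung Th2. All 17 tested members lay below 0 and none was called. Without lung library 2, 11 of 22 tested members lay above 0 and none was called. The sizes in the full set therefore describe lung library 2, which also had the highest mesenchymal share. The locus is not confined to that library in the series: cultured innate lymphoid cells, described below, held 0.0554 to 0.828% of counts from it (mean 0.291%).

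**Figure D4:**
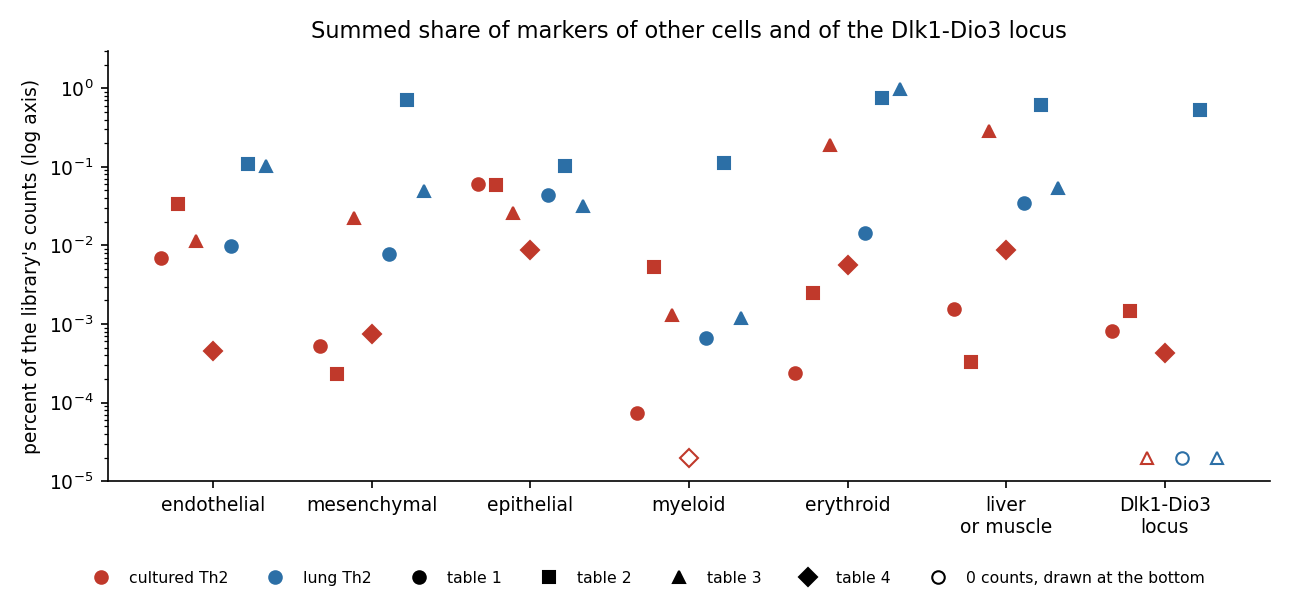
Summed share of counts, in percent on a log axis, of the marker lists of other cells and of the Dlk1-Dio3 locus in each cultured (red) and lung (blue) Th2 library, with markers by count table and open symbols for 0 counts. Lung library 2 is the highest in 6 of the 7 lists, and in the erythroid list lung library 3 is.

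Activated group 2 innate lymphoid cells (ILC2) allow the same contrast in another type 2 lymphocyte with no shared library. Cultured ILC2 were grown for 10 days with 10 ng/ml of IL-33, TSLP and IL-7, and IL-33 ILC2 were sorted from the lung after 500 ng of IL-33 over 3 days, both from wild-type mice and both gated by CD45, Thy1, CD25 and ST2 on cells negative for CD4 and lineage markers. The differences in time and stimulus mean that the contrasts are alike only in setting culture against lung. A test of the difference between the Th2 and the ILC2 contrast called 22 of 384 microRNAs (5.73%), with 4 more positive in Th2 (1.04%) and 18 more negative (4.69%). Leaving out lung Th2 library 2 brought the count to 4, and leaving out lung Th2 library 1 brought it to 42.

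miR-146a-5p stood out in that test. In ILC2 it had 46869.7, 54735, 34472 and 12297 CPM in culture, against 66661, 23264, 10054 and 3674 CPM after IL-33. Culture was the higher side in 3 of 4 ILC2 tables, where in Th2 it was the lower side in 3 of 3. The log2 differences were -3.57 in Th2 and 1.16 in ILC2, a gap of -4.72 ± 0.77 (adjusted p = 8.57e-05, edgeR), which had an adjusted p of 0.071 with no replicate block. miR-210-3p had 1736, 1491, 840.2 and 133 CPM in cultured ILC2, against 325, 435, 683 and 26.3 CPM in IL-33 ILC2. It was higher in culture in both cell types, at 6.58 in Th2 and 1.50 in ILC2, and the gap of 5.08 ± 1.22 passed the test (adjusted p = 0.0092, edgeR; 0.24 with no replicate block).

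For miR-150 the difference between the cell types was not called. miR-150-5p had 14.1, 489, 500.2 and 63.7 CPM in cultured ILC2 and 242, 7796, 1048 and 300 CPM in IL-33 ILC2, lower in culture in each table. Its differences were -4.53 in Th2 and -2.47 in ILC2 (adjusted p = 0.010 in ILC2, edgeR, where 10 of 384 were called higher, 2.6%, and 6 lower, 1.56%, 4.17% in all), and the gap of -2.06 ± 0.79 was not called (adjusted p = 0.12, edgeR). Scaled by library totals less miR-21a-5p, that gap was -2.74 and was called (adjusted p = 0.027, edgeR), which it was in none of the other alternatives. For miR-150-3p the differences were -4.14 in Th2 and -4.69 in ILC2, and for miR-532-5p 3.17 in Th2 and 1.61 in ILC2, neither gap being called. miR-103-3p and miR-24-3p were above 0 in Th2 and below 0 in ILC2, at 1.68 and -1.04 for miR-103-3p and 1.15 and -1.01 for miR-24-3p. Their gaps of 2.72 ± 0.74 and 2.17 ± 0.60 passed the test (adjusted p = 0.022 and 0.026, edgeR), but these calls were unstable. With no replicate block the adjusted p was 0.68 for miR-103-3p and 0.84 for miR-24-3p (edgeR). Neither was called with library totals, with library totals less miR-21a-5p, with no filter on low counts, with limma at either pseudocount, or with lung Th2 library 2, lung Th2 library 3 or cultured Th2 library 1 left out, and miR-24-3p was also lost without IL-33 ILC2 library 3. Most of the 18 more negative in Th2 belong to the Dlk1-Dio3 locus. For example, miR-379-5p had 1.09, 0, 0 and 0.502 CPM in cultured Th2 and 0, 584 and 0 CPM in lung Th2, while cultured ILC2 had 61.7, 105, 19.7 and 1439.5 CPM and IL-33 ILC2 had 0, 0, 0 and 6.75 CPM. Without lung Th2 library 2 the gap of miR-379-5p was not called (adjusted p = 1.0, edgeR). Over all 384 microRNAs the sign of the Th2 and the ILC2 difference was the same in 202, which is 52.6%.

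**Figure D5:**
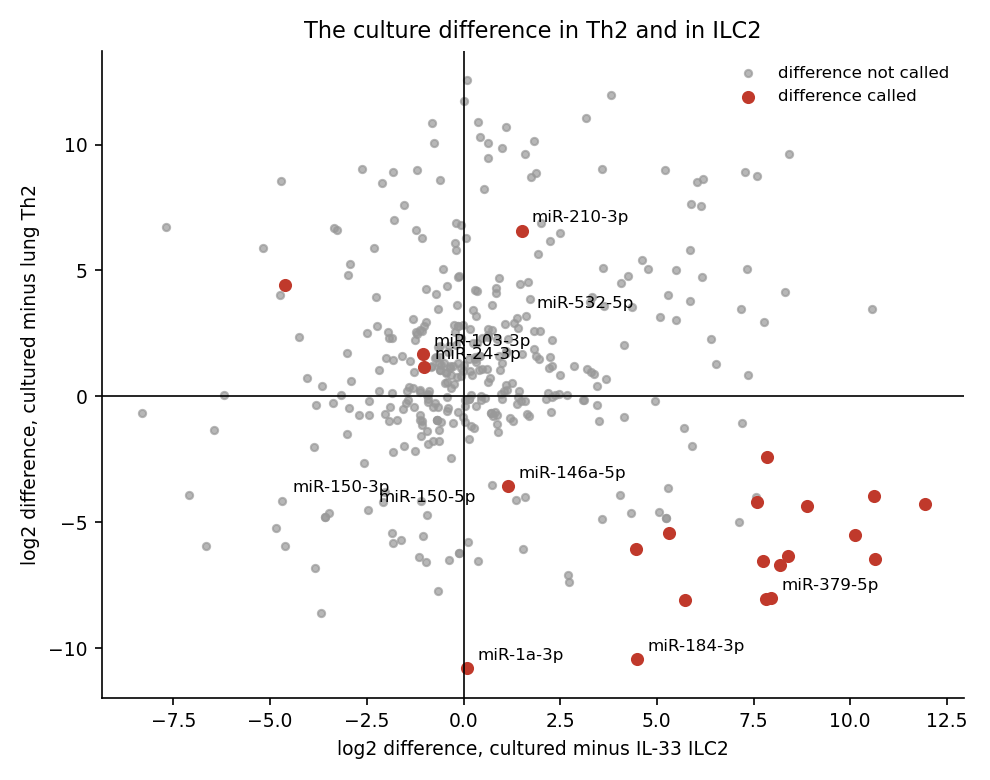
Log2 difference of cultured minus lung Th2 (vertical axis) against that of cultured minus IL-33 ILC2 (horizontal axis) for the 384 tested microRNAs; red points are the 22 for which the difference between the contrasts was called. miR-146a-5p lies at -3.57 in Th2 and 1.16 in ILC2, miR-210-3p at 6.58 and 1.50, and most other red points lie at the lower right.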

How the data were processed

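The series measured microRNAs by small RNA sequencing of total RNA. The authors deposited expected counts per microRNA, which need not be whole (9.98% of values above 0 are fractional), in 4 tables with 1256 entries in their union, and a table of RPM, in which each library sums to 1000000. The genome build mm10 and DESeq2 are named, per the submitters' processing notes. The aligner is not given in the sources used here. Columns of group averages, 6 in the RPM table, were left out. Entries missing from a count table were taken as 0 in its libraries.

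Expected counts were rounded and fitted with edgeR 4.0.16 in R 4.3.3 over all 23 libraries of 6 groups (TMM, filterByExpr by group leaving 384 microRNAs, robust quasi-likelihood F-tests, Benjamini-Hochberg adjustment over the 384; calls have an adjusted p below 0.05). The count table, which per the labels goes with the replicate number, was the block. Deviations from group means correlated above 0.1 in 51 of 55 pairs of libraries with the same number (median 0.39), but in the 3 Th2 pairs the correlations were 0.30, 0.066 and -0.0087. CPM are per library total. Overlap and direction within tables use TMM-scaled values. With 3 lung libraries against 4 cultured, the lung depths of 84911 to 272154 counts limit precision, and intervals and floors cover counting error only. DESeq2 1.42.0 and limma 3.58.1 (on log2(RPM + 1) and log2(RPM + 10)) served as alternatives. Python 3.11.15 and scipy 1.17.1 gave the exact permutation test and the intervals. The test was checked on simulated data with less spread between libraries than was fitted here and with no replicate effect. That check therefore does not cover the noise of these libraries.

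The members and lists were chosen with earlier results of these data known. Named microRNAs are calls whose mean log2 CPM reaches 5 and that keep 1 direction in the 3 shared tables, the 10 smallest p values of that kind, up to 4 members of each list, abundant members of the miR-17-92 and let-7 lists, the 5 most abundant of each group, markers of other cells, and the 5 largest and 5 smallest differences from ILC2; others are said to be chosen after their values were seen. Sequences are RefSeq's on GRCm38, with 310 of 384 tested microRNAs matched. Clusters join hairpins of 1 strand at most 10000 bases apart.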

Additional observations from a re-analysis of the deposited data

Results flagged for a closer look

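In the cultured Th2 group 1 library lay far from the other 3 in several measures, in 8 of 53 groups of values tested. Over all 103 microRNAs named by the rule, printed or not, 22 had such a library. The limit used flags about 1 in 20 groups of normally distributed values. CPM and shares were tested without a log scale and need not be so distributed, so neither count is read as an excess over chance. These values are not independent, since they come from the same 4 libraries and a microRNA is also part of its family's sum. Cultured library 1 was the lowest for miR-532-5p at 379 CPM. That library was the highest for miR-103-3p at 58885 CPM, for miR-24-3p at 155636 CPM and for the summed miR-103 and miR-107 family at 6.25% of counts. It is also the deepest library, with 28371898 counts. Cultured library 3 was the highest for miR-451a at 1848 CPM, and for the summed mesenchymal (0.0224%), erythroid (0.192%) and liver or muscle markers (0.289%). The part of depth or of other cells in these values was not tested.

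The log2 difference between cultured and lung cells differed between Th2 and ILC2, by the test of the difference itself, for 12 named microRNAs. Most of these were named because their gap was called, so the count of 12 is no result of its own. Over all 384 tested, 22 gaps were called (5.73%). The gap, Th2 minus ILC2, was -4.72 for miR-146a-5p, 5.08 for miR-210-3p, 2.72 for miR-103-3p, 2.17 for miR-24-3p and 9.02 for miR-181c-3p (adjusted p = 0.049, edgeR). miR-181c-3p rested on low levels, at 13.6, 40.4, 111 and 138 CPM in cultured Th2 and 0, 33.1 and 0 CPM in lung Th2. The other gaps were -14.92 for miR-184-3p, -10.91 for miR-1a-3p, -15.97 for miR-379-5p, -16.20 for miR-134-5p, -14.77 for miR-541-5p, -13.82 for miR-381-3p and -11.79 for miR-127-3p. These fitted sizes depend on groups at or near 0 counts in cultured Th2, and in lung Th2 the counts of all but miR-184-3p came from library 2, so their size is no measure of the change. Without that library, of these 7 only the gap of miR-184-3p was called (adjusted p = 0.016, edgeR), and the gaps of miR-103-3p, miR-24-3p and miR-181c-3p were not called either. In lung Th2 the miR-184-3p counts then came from library 1 alone.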

How the results depend on the processing

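The count of 7 calls between cultured and lung Th2 moved with the processing. It was 2 with no replicate block, 11 with DESeq2 size factors, 13 with library totals, 11 with no filter on low counts, 3 in the 6 paired Th2 libraries alone, 1 in the 7 Th2 libraries with no replicate block, 45 with DESeq2's Wald test, 19 with limma on log2(RPM + 1), 31 on log2(RPM + 10), and 8 to 20 with 1 library left out. The difference between Th2 and ILC2 had 22 calls, 9 with no filter, 6 when at least 10 counts in 12 libraries were required, and 4 to 42 with 1 library left out. The ILC2 contrast had 16 calls, and 0 with no replicate block (edgeR, 59 at an unadjusted p below 0.05). It had 6 with no filter, 9 with the stricter filter, and 1 to 14 with 1 ILC2 library left out. Without cultured Th2 library 1, which is part of the same fit, it had 20. The ILC2 alternatives were chosen after seeing the data.

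The directions of the 7 calls held in every alternative in which they were fitted. Among the single microRNAs whose log2 differences are printed, directions turned in 4 results. Over all 103 microRNAs named by the rule, printed or not, the Th2 difference turned in at least 1 alternative in 30. miR-146b-5p was 0.20 with no replicate block, 0.22 with no filter, and -0.61 to 0.60 with 1 library left out. miR-21a-5p, 0.45 in the fit reported, was -0.43 with library totals, -0.39 with library totals less miR-21a-5p, -0.36 with limma at either pseudocount, and -0.050 to 1.39 with 1 library left out. miR-155-5p was -0.44 with no replicate block, -0.36 with DESeq2 size factors and with DESeq2's test, -0.85 with library totals, -0.66 with library totals less miR-21a-5p, -0.018 with the stricter filter, -0.37 in the paired libraries, -0.66 in the 7 libraries, -0.96 and -0.95 with limma, and -0.28 to 0.99 with 1 library left out. The gap of miR-150-3p between Th2 and ILC2 was -0.0087 with library totals, -0.36 with library totals less miR-21a-5p, and -0.20 to 2.66 with 1 library left out. The difference in the share of miR-21a-5p was -5.13 points as the mean of the 3 pairs (the replicate block), and -5.13 to 12.5 points with 1 library left out. Of the 23 lists, 12 changed the sign of their difference in summed share in at least 1 alternative, the activation-induced list among them (-6.59 to 11.2 points with 1 library left out). With library totals the medians of 5 lists fell below 0: the activation-induced, T helper, miR-15/16, miR-29 and miR-23/27/24 lists, of which the miR-15/16 and miR-29 medians also did so with DESeq2 size factors. The cause of these shifts was not tested.

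Lung depth limits the comparison: 0 counts allow up to 35.3 CPM in lung library 3. Lung library 2 carried markers of several other tissues, and lung library 3 held the largest erythroid share (0.969% of counts). With 3 lung libraries, and with genotype, organ and sorting tied to the groups, the comparison describes these libraries.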
